A study of Oryza sativa with 8 samples.

Results

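PBZ1, OsChia4a, OsChia2a, OsAOS2 and OsWRKY76 are 5 rice genes of defence against microbes, among 17905 genes that the array annotation pairs with a probe set of their own. They were chosen by name, and every probe set paired with that name alone was taken. OsChia2a had 3 probe sets and the other genes 1 each, which gave 7 probe sets. The main value of OsChia2a is that of the probe set with the highest mean over all arrays. The choice was made with the genotype differences of these same arrays known, so the values of the 5 genes are given as a description, without a test.

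The arrays were Affymetrix rice gene chips, on which each probe set reports the level of a transcript. RNA came from field-grown Hejiang19 plants, a rice cultivar that served as wild type, and from transgenic Hejiang19 plants that overexpress Ghd7 (named OX-Ghd7HJ19), a gene known in rice for its effect on heading date and yield. Young leaves at 35 days and developing panicles of 0.1 cm were collected 3 hours after dawn from both genotypes. Each of the 4 groups of genotype and tissue held 2 arrays, called biological replicates in the labels. The promoter of the transgene, the number of transgenic lines and the number of plants behind an array are not given in the sources used here, so the p-values measure the spread between these arrays. A description field shared by all 8 samples speaks of flag leaves at heading, while title, source, tissue and treatment fields give young leaves or panicles. The latter were followed.

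Plants answer microbes with small antimicrobial proteins, with enzymes that attack microbial walls, and with hormones that carry the alarm through the tissue. PBZ1 is a pathogenesis-related protein of the PR10 family, known in rice for its induction by the blast-control agent probenazole. Chitinases such as OsChia4a and OsChia2a cut chitin, a polymer of fungal cell walls. OsAOS2 is an allene oxide synthase, which makes the first committed intermediate of jasmonate, a hormone of wounding and defence. OsWRKY76 belongs to the WRKY transcription factors, which bind W-box elements, and is known in rice as a repressor of defence genes.

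All values are RMA values on the log2 scale. Leaf arrays had medians of 4.49 to 4.53 and panicle arrays of 6.13 to 6.15, so the tissues lie on different scales. Genotypes were therefore compared within a tissue, and tissues by the percentile of a probe set, which is the share of the 57194 probe sets of the same array that lay lower. Of 6 measured photosynthesis markers, 6 ranked higher on the wild-type leaf arrays than on the wild-type panicle arrays, and of 9 measured markers of panicle meristem and spikelet, 7 ranked higher on the panicle arrays. The markers also differed between genotypes. In transgenic panicles 6 of 6 photosynthesis markers ranked lower, with a median percentile of 56.8 against 62.8 in wild type. There 7 of 9 panicle markers ranked higher and 2 lower, although their median was 95.7 against 96.9 in wild type. In transgenic leaves 5 of 9 panicle markers ranked lower and 4 higher. The widest shifts were in OsMADS14 (40.9 against 98.4 in wild type) and OsMADS1 (36.0 against 96.2). Of the 6 photosynthesis markers, 4 ranked lower in transgenic leaves and 0 higher, with a median of 99.9 in both genotypes. The part of these shifts in the genotype differences was not tested. The wild-type leaf arrays stood apart from each other more than those of other groups did. The shares of probe sets higher and lower by at least 1 in replicate 1 were 0.173% and 0.119% between the transgenic leaf arrays. They were 0.129% and 0.122% between the transgenic panicle arrays, and 0.0035% and 0.00699% between the wild-type panicle arrays. Between the wild-type leaf arrays 0.783% of probe sets were higher and 0.259% lower. Of 13 JAZ genes of the jasmonate response, 8 were among the higher and 1 among the lower, and their values are given with that pathway. No probe set was paired with Ghd7 itself, which is not analysed here, so the targeted gene gave no check of the labels.

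PBZ1 was far higher in transgenic than in wild-type panicles. The wild-type panicle arrays read 8.39 and 8.42 and the transgenic ones 11.01 and 10.68. The groups did not overlap and lay 2.26 apart at their nearest arrays. Their means were 8.41 ± 0.02 (SD, n = 2) and 10.85 ± 0.24 (SD, n = 2), a difference of 2.44 ± 0.16 (SE), or 5.43-fold. In leaves PBZ1 read 12.80 and 12.84 in wild type and 12.89 and 13.29 in the overexpressor. There the gap between the nearest arrays was only 0.045, and the difference of 0.27 ± 0.16 (SE) was of the size of the SD of the transgenic leaf arrays, 0.28. Without transgenic leaf replicate 2 that difference was 0.07. PBZ1 stood at percentiles 99.6 to 99.8 on the leaf arrays, at 69.4 and 69.6 in wild-type panicles and at 86.8 and 89.2 in transgenic panicles. In whole tissue, more transcript per cell and more cells of a kind that makes it cannot be told apart.

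**Figure D1:**
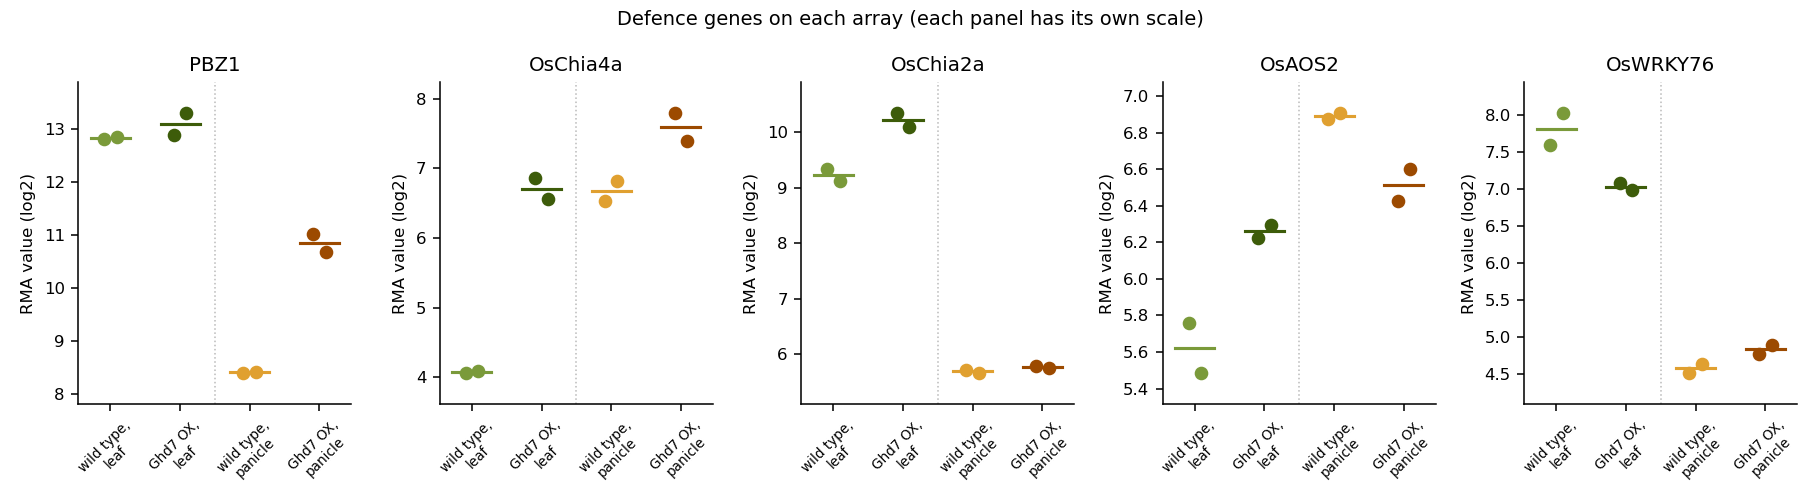
RMA values (log2, vertical axis, a separate scale for each gene) of the main probe set of 5 genes on each of the 8 arrays. Points are arrays, short lines are means of 2 arrays, and the dotted line separates leaf from panicle arrays, whose scales differ. PBZ1 goes from 8.41 to 10.85 between the panicle groups, and OsChia4a from 4.08 to 6.71 between the leaf groups.

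OsChia4a showed the largest genotype difference of the 5 genes in leaves. Wild-type leaves read 4.06 and 4.10 and transgenic leaves 6.86 and 6.56. The transgenic arrays both lay well above the wild-type pair, by 2.47 at the nearest. The difference of the means, 4.08 ± 0.02 (SD, n = 2) and 6.71 ± 0.21 (SD, n = 2), was 2.63 ± 0.17 (SE), which is 6.19-fold. The wild-type arrays had it at percentiles 42.4 and 42.8, below the median of its arrays, where a signal may be background, so the size of the fold is uncertain. When all arrays were quantile normalized again the difference was 3.36. In panicles OsChia4a read 6.53 and 6.82 in wild type and 7.79 and 7.40 in the overexpressor. These groups did not overlap either, and the difference was smaller, 0.92 ± 0.17 (SE) or 1.89-fold. OsChia4a was thus higher in the overexpressor in both tissues, with the larger difference in leaves. PBZ1 was clearly higher only in panicles, since its leaf difference of 0.27 ± 0.16 (SE) was within the spread of the transgenic leaf arrays.

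OsChia2a was higher in transgenic leaves and close to equal in panicles. Its main probe set read 9.34 and 9.12 in wild-type leaves and 10.34 and 10.10 in transgenic leaves. No wild-type leaf array reached a transgenic one, and the difference was 0.99 ± 0.13 (SE), or 1.99-fold. In panicles the readings were 5.72 and 5.66 in wild type and 5.79 and 5.76 in the overexpressor, with a difference of 0.08 ± 0.13 (SE). All panicle readings lay at percentiles 43.6 to 45.5, below the array median, where a signal may be background. In leaves the same probe set stood at percentiles 93.2 to 96.9. The suffix of this probe set marks probes that may match more than 1 transcript, so a share of its signal could come from related sequences.

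The 3 probe sets of OsChia2a did not read alike. The second had 9.84 and 9.27 in wild-type leaves and 10.49 and 10.34 in transgenic leaves, a difference of 0.86 ± 0.20 (SE) in the same direction as the first. Its panicle values lay at percentiles 2.0 to 15.2, with a difference of 0.45 ± 0.20 (SE). The third had 3.67 and 3.33 in wild-type leaves and 3.42 and 3.13 in transgenic leaves, at percentiles 22.5 to 34.7, and its groups overlapped in both tissues. Its leaf difference was -0.22 ± 0.16 (SE). The 2 probe sets with high leaf signal therefore gave the same direction in leaves, and the dim one gave no separation of the genotypes. The mean of the 3 differences in leaves was 0.54, below the value of the main probe set.

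OsAOS2 went opposite ways in the tissues. Leaves read 5.76 and 5.49 in wild type and 6.23 and 6.29 in the overexpressor. The transgenic leaf arrays were both higher, and the difference was 0.64 ± 0.13 (SE), or 1.56-fold. Panicles read 6.87 and 6.90 in wild type and 6.42 and 6.60 in the overexpressor. Here both transgenic arrays were lower, and the difference was -0.38 ± 0.13 (SE), 1.30-fold lower. The percentiles were 65.2 to 74.8 on leaf arrays and 53.5 to 58.2 on panicle arrays, so OsAOS2 was above the median in every sample. Its leaf difference was 0.88 after quantile normalization of all arrays again.

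OsWRKY76, alone among the 5 genes, was lower in transgenic leaves. It read 7.60 and 8.02 in wild-type leaves and 7.08 and 6.99 in transgenic leaves. The wild-type arrays both lay above the transgenic pair, by 0.52 at the nearest, and the difference was -0.78 ± 0.15 (SE), 1.71-fold lower. The 2 wild-type leaf arrays differed by 0.42, the widest gap between replicates among the main probe sets of the 5 genes in that group. The leaf difference was -0.57 without wild-type replicate 2 and -0.99 without wild-type replicate 1. In panicles it read 4.52 and 4.64 in wild type and 4.78 and 4.90 in the overexpressor, a difference of 0.26 ± 0.15 (SE). Those readings lay at percentiles 23.4 to 29.9, against 80.9 to 87.5 in leaves, so the panicle signal may be background.

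**Figure D2:**
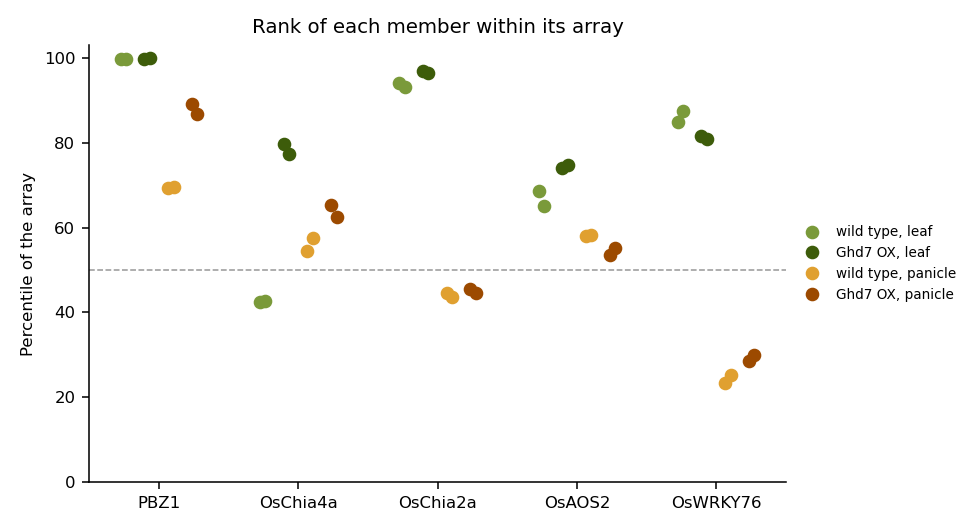
Percentile of the main probe set of each of the 5 genes on its array (vertical axis), with 1 point for each of 8 arrays and colours for genotype and tissue. The dashed line marks the array median, and OsChia2a and OsWRKY76 are above it on all leaf arrays and below it on all panicle arrays.

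In leaves, 4 of the 5 genes had both transgenic arrays above both wild-type arrays and 1 had both below. Such separation was found in 25.2% and 18.3% of all probe sets. In panicles the counts were 4 and 1, against 27.3% and 24.0% of all probe sets. Separation in opposite directions in the tissues, as for OsAOS2 and OsWRKY76, was found in 10.4% of all probe sets. These shares are given as background only, since the genes were chosen from these contrasts. The order of the PBZ1 leaf groups rests on a gap of 0.045, within the spread of the transgenic arrays. That of the OsChia2a panicle groups rests on a gap of 0.036, with a difference of 0.08 ± 0.13 (SE). The panicle readings of OsChia2a and OsWRKY76 lay below the array median, where a signal may be background.

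The rank of the 5 genes differed between tissues. The mean percentile of PBZ1 over the 2 wild-type arrays was 99.6 in leaves and 69.5 in panicles, that of OsChia2a 93.5 and 44.1, and that of OsWRKY76 86.1 and 24.3. For OsAOS2 it was 66.9 and 58.0. OsChia4a was the exception, at 42.6 in leaves and 56.0 in panicles of wild type, and in the overexpressor it too ranked higher in leaves, at 78.6 against 63.9. Percentiles compare a gene with the others on its array and are no measure of amounts of RNA.

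Genes of the same pathways were tested to set the 5 genes beside them. They formed 5 lists with 81 measured genes, none of them among the 5, each represented by its brightest probe set on average. "Rose" and "fell" mean an adjusted p under 0.05 by limma with Benjamini-Hochberg adjustment over 57194 probe sets. In leaves 4 of the 81 genes rose and 6 fell, with 22 (27.2%) at an unadjusted p under 0.05 against 25.7% of all genes, where the fit called 2.41% of all 17905 genes higher and 6.34% lower. In panicles 0 rose and 2 fell by limma, with 11 (13.6%) at an unadjusted p under 0.05 against 16.2% of all genes, where 1.65% of all genes were higher and 2.04% lower. The median difference over the 81 genes was 0.001 in leaves and -0.02 in panicles, against -0.02 and -0.002 over all genes. Calls went in both directions in leaves. The 2 panicle calls were 2.47% of the 81 genes, against 3.69% called over all genes, and are too few to show a direction.

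**Figure D3:**
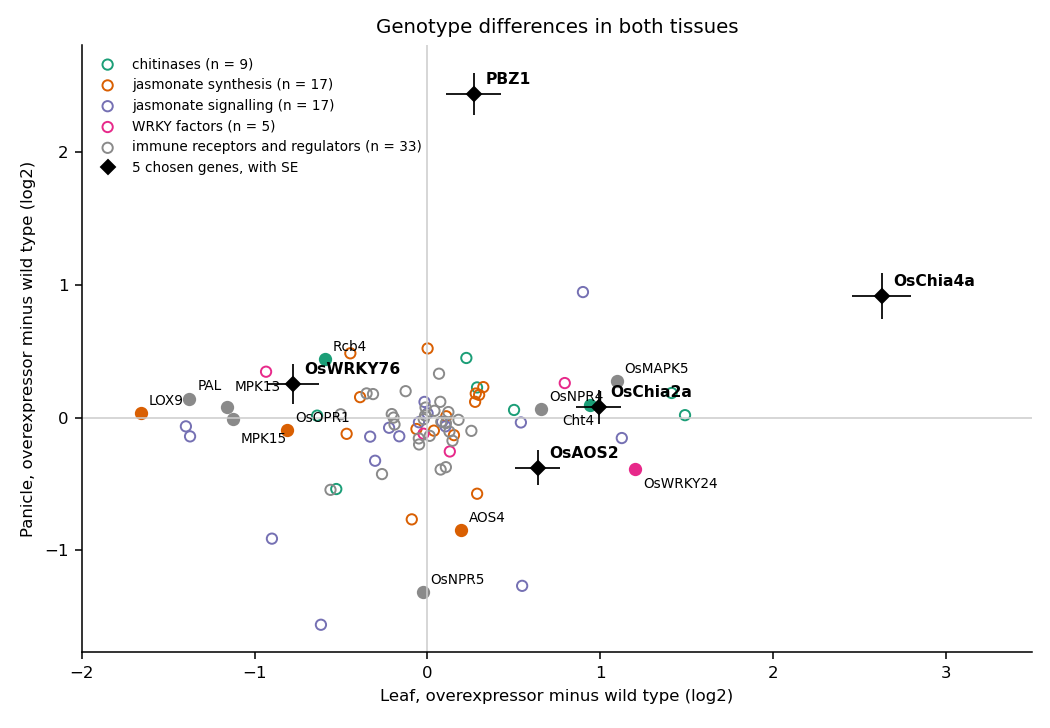
Difference between overexpressor and wild type (log2) in leaves (horizontal axis) and in panicles (vertical axis) for 81 pathway genes and the 5 chosen genes. Filled circles are pathway genes called by limma in either tissue, open circles are those not called, and diamonds with SE bars are the 5 genes. PBZ1 lies at 2.44 on the panicle axis and OsChia4a at 2.63 on the leaf axis.

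Chitinases beside OsChia4a and OsChia2a moved unevenly. Of 9 measured, 1 rose and 1 fell in leaves. There 7 (77.8%) had an unadjusted p under 0.05 by limma, in both directions, against 25.7% of all genes. In panicles none was called, and 3 (33.3%) had an unadjusted p under 0.05, against 16.2% of all genes. The median difference was 0.29 in leaves and 0.09 in panicles. Cht4 (OsChia2b) rose from 3.40 and 4.05 in wild-type leaves to 4.88 and 4.45 in transgenic leaves, by 0.94 ± 0.22 (SE, adjusted p = 0.0470), from percentile 35.8, where it may be background. Rcb4 fell from 10.77 and 10.85 to 10.13 and 10.31, a change of -0.59 ± 0.13 (SE, adjusted p = 0.0360). Neither call was stable to leaving out single arrays: Rcb4 lost its call whichever of the 8 arrays was dropped (adjusted p = 0.0519 to 0.177), and Cht4 passed only without wild-type leaf replicate 2 (adjusted p = 0.0194, otherwise up to 0.240). Cht4 had adjusted p = 0.113 and Rcb4 adjusted p = 0.0535 with a replicate block.

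Other chitinases with sizeable leaf differences did not pass. Cht1 (OsChia1a) read 9.0 and 6.37 in wild-type leaves and 8.99 and 9.36 in transgenic leaves. The groups overlapped, since only wild-type replicate 2 lay below both transgenic arrays, and the difference was 1.49 ± 0.64 (SE, adjusted p = 0.280). Cht3 (OsChia1c) read 6.48 and 5.04 in wild-type leaves and 7.18 on both transgenic arrays, a difference of 1.41 ± 0.36 (SE, adjusted p = 0.0655). Cht6 differed by 0.50 ± 0.14 (SE, adjusted p = 0.0963). Cht10 at -0.53 ± 0.13 (SE, adjusted p = 0.0578) and Cht11 at -0.64 ± 0.16 (SE, adjusted p = 0.0671) lay the other way. In panicles the smallest p-values were those of Cht10 at -0.54 ± 0.13 (SE, adjusted p = 0.0689) and Rcb4 at 0.44 ± 0.13 (SE, adjusted p = 0.128).

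The list of jasmonate synthesis was made by the names of gene families, so its genes need not all act in that pathway. Beside OsAOS2, 17 of them were measured. In leaves 0 rose and 2 fell (11.8% called, against 8.76% of all genes), with a median of 0.04. In panicles 0 rose and 1 fell (5.88% called, against 3.69% of all genes), with a median of 0.01. By limma 4 (23.5%) had an unadjusted p under 0.05 in each tissue, against 25.7% of all genes in leaves and 16.2% in panicles. LOX9 (CM-LOX2), a lipoxygenase, an enzyme class that oxidises the fatty acids from which jasmonate is made, fell in leaves from 7.99 and 7.69 to 5.92 and 6.44, a change of -1.66 ± 0.23 (SE, adjusted p = 0.00460). OsOPR1, of the 12-oxophytodienoate reductase family, fell from 8.13 and 7.55 to 7.11 and 6.95, a change of -0.81 ± 0.18 (SE, adjusted p = 0.0401). LOX9 passed without each of the 8 arrays (adjusted p = 0.00529 to 0.0414). OsOPR1 passed only without wild-type leaf replicate 2 (adjusted p = 0.00881, otherwise up to 0.229).

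The other allene oxide synthases can be set beside OsAOS2, which was lower by 0.38 in transgenic panicles. AOS4 fell in panicles from 5.36 and 5.63 to 4.62 and 4.68, a change of -0.85 ± 0.14 (SE, adjusted p = 0.0159), with both values below the array median. AOS1 read 8.51 and 8.48 in wild-type panicles and 7.95 and 7.51 in transgenic panicles, a difference of -0.77 ± 0.18 (SE, adjusted p = 0.0680) that did not pass. AOS3 differed by 0.17 ± 0.16 (SE, adjusted p = 0.717) there. In leaves none of these 3 passed, with differences of 0.19 for AOS4, -0.09 for AOS1 and 0.30 for AOS3. The call of AOS4 was lost without any 1 of the 4 panicle arrays (adjusted p up to 0.173). OsAOC, which acts after allene oxide synthase, differed by 0.04 in leaves and -0.10 in panicles, and OsOPR7, the reductase known for jasmonate synthesis in rice, by 0.15 and -0.13, none of which passed.

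No gene of jasmonate signalling passed in either tissue in the limma fit over 8 arrays among 17 measured. In leaves 1 (5.88%) had an unadjusted p under 0.05 by limma, against 25.7% of all genes, and in panicles 0, against 16.2%. The list held 13 JAZ repressors, which are switched on by jasmonate and damp its response, and 4 genes of COI receptors and the adaptor NINJA. The smallest p-values in leaves belonged to OsTIFY6a at -0.33 ± 0.12 (SE, adjusted p = 0.204) and OsTIFY11b at 1.13 ± 0.53 (SE, adjusted p = 0.327), and in panicles to OsTIFY11c at -1.56 ± 0.75 (SE, adjusted p = 0.375) and OsTIFY11d at -1.27 ± 0.72 (SE, adjusted p = 0.468). The median was -0.05 in leaves and -0.08 in panicles.

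The JAZ genes differed widely between the 2 wild-type leaf arrays. Of 13, 8 were higher by at least 1 in replicate 1 and 1 was lower by at least 1, where 1.28% and 0.380% of all genes were. OsTIFY11c read 7.61 and 4.58, OsTIFY11d 8.04 and 5.04, OsTIFY10c 8.01 and 4.97, and OsTIFY11b 9.16 and 6.98. OsTIFY5 went the other way, at 2.73 and 5.54. Between the transgenic leaf arrays 0 of 13 were higher by at least 1 in replicate 1 and 1 was lower, OsTIFY11e by -1.02. Between the transgenic panicle arrays 1 was higher, OsTIFY5 by 1.09, and 0 were lower, and between the wild-type panicle arrays the widest gap was 0.42. OsTIFY11c read 5.90 and 5.06 in transgenic leaves, between the wild-type values. The fit takes 1 spread for all groups, so this gap also enters the SE of the panicle differences: OsTIFY11c read 8.12 and 8.14 in wild-type panicles and 6.50 and 6.64 in transgenic ones, and did not pass. In the fit on the 4 panicle arrays alone, without the leaf arrays, OsTIFY11c (-1.56 ± 0.09 (SE), adjusted p = 0.0151) and OsTIFY11d (-1.27 ± 0.10 (SE), adjusted p = 0.0272) passed as lower in transgenic panicles. The main probe sets of the 5 genes described first differed by at most 0.42 between the wild-type leaf arrays. The second OsChia2a probe set read 9.84 and 9.27 there.

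**Figure D4:**
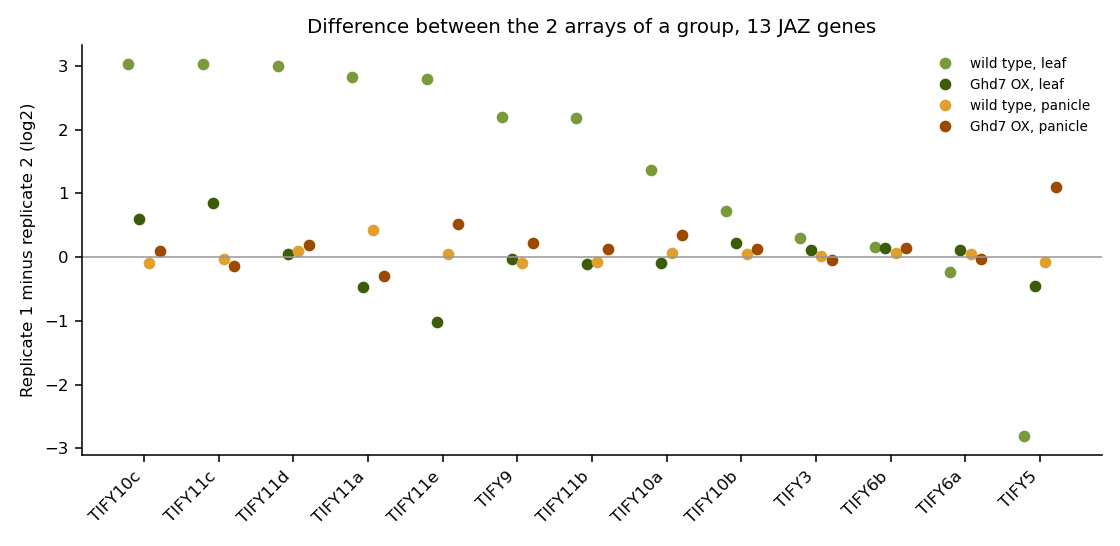
Difference between replicate 1 and replicate 2 of the same group (log2, vertical axis) for 13 JAZ genes, named by their TIFY symbols, with colours for genotype and tissue. The wild-type leaf arrays differ by up to 3.03, with 8 genes at least 1 higher in replicate 1 and TIFY5 lower, while the wild-type panicle arrays differ by at most 0.42.

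Of 5 measured WRKY factors beside OsWRKY76, 1 rose in leaves. There 3 (60%) had an unadjusted p under 0.05 by limma, against 25.7% of all genes. None was called in panicles, where 0 had an unadjusted p under 0.05, against 16.2% of all genes. OsWRKY24 rose from 6.59 and 6.75 in wild-type leaves to 7.52 and 8.23 in transgenic leaves, by 1.20 ± 0.25 (SE, adjusted p = 0.0301). Its call was lost without 5 of the 8 arrays (either wild-type leaf array, either wild-type panicle array, or transgenic leaf replicate 2), with adjusted p up to 0.183. OsWRKY62, known in rice as a negative regulator of immunity, read 5.05 and 6.00 in wild-type leaves and 4.58 and 4.60 in transgenic leaves. Both transgenic values were lower, as for OsWRKY76, but the difference of -0.93 ± 0.28 (SE, adjusted p = 0.118) did not pass. OsWRKY71, another member of the family, differed by 0.80 ± 0.21 (SE, adjusted p = 0.0815) in leaves. In panicles the smallest p-values were those of OsWRKY51 at -0.25 ± 0.14 (SE, adjusted p = 0.448) and OsWRKY24 at -0.39 ± 0.25 (SE, adjusted p = 0.542).

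Among 33 measured immune receptors and regulators, 2 rose and 3 fell in leaves (15.2% called, against 8.76% of all genes). In panicles 0 rose and 1 fell (3.03% called, against 3.69% of all genes). By limma 7 (21.2%) had an unadjusted p under 0.05 in leaves, against 25.7% of all genes. In panicles it was 4 (12.1%), against 16.2%. OsMAPK5, a MAP kinase of stress and defence signalling, rose in leaves from 6.70 and 6.66 to 7.71 and 7.84, by 1.10 ± 0.12 (SE, adjusted p = 0.00157). MPK15, of the same kinase family, fell in leaves from 4.05 and 4.10 to 3.02 and 2.88, a change of -1.13 ± 0.11 (SE, adjusted p = 9.20e-04), with both groups below the array median. Both passed without each of the 8 arrays, with adjusted p up to 0.0201 for OsMAPK5 and 0.0111 for MPK15. PAL, a phenylalanine ammonia-lyase at the entry to phenylpropanoids, fell from 10.15 and 11.17 to 9.18 and 9.38, a change of -1.38 ± 0.27 (SE, adjusted p = 0.0233). The suffix of the PAL probe set marks probes that may match other sequences, so a share of its signal could come from related genes.

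The remaining leaf calls were MPK13 at -1.16 ± 0.25 (SE, adjusted p = 0.0349) and OsNPR4 at 0.66 ± 0.14 (SE, adjusted p = 0.0357). OsNPR4, of the family of the salicylic acid receptor NPR1, lay at percentiles 35.5 in wild-type and 47.2 in transgenic leaves. Both lie below the array median, where a signal may be background. OsNPR5, of the same family, fell in panicles from 8.09 and 8.04 to 7.07 and 6.44, a change of -1.31 ± 0.20 (SE, adjusted p = 0.00936). OsNPR5 lost its call without wild-type panicle replicate 1 or 2 (adjusted p up to 0.0868). PAL passed without either wild-type leaf array, and lost its call without each of the other 6 (adjusted p up to 0.143). MPK13 passed only without wild-type leaf replicate 1 (adjusted p = 0.00570, otherwise up to 0.202) and OsNPR4 only without the same array (adjusted p = 0.0347, otherwise up to 0.183). The 12 calls in leaves and panicles were also fitted on the 4 arrays of their tissue alone, where 2 passed, OsMAPK5 (adjusted p = 0.0422) and MPK15 (adjusted p = 0.0416).

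The genotype difference itself was tested between the tissues for the 81 pathway genes. The test sets log2 differences of leaf and panicle arrays side by side, although these arrays lie on different scales. The panicle difference minus the leaf difference passed as positive for 3 and as negative for 4, where 4.07% and 2.42% of all genes were called. MPK15, LOX9 and Rcb4 fell in leaves and had panicle differences of -0.01, 0.04 and 0.44. All LOX9 panicle values lay far below the array median, where a signal may be background. Its panicle difference therefore cannot show whether the genotypes differ there. OsMAPK5 and OsWRKY24 rose in leaves and had panicle differences of 0.28 and -0.39, while AOS4 and OsNPR5 fell in panicles and had leaf differences of 0.19 and -0.03.

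The nearest measured genes on each side of the 5 genes, up to 20 in all, were looked up in the gene order of a RefSeq rice annotation, after the values of the 5 genes had been seen. Of the 20, 3 passed in leaves and 1 in panicles, where 8.76% and 3.69% of all genes were called. Cht4 lies before OsChia4a with 2 other genes between them that were not measured, and was higher in transgenic leaves, as described above. OsWRKY62 is the gene directly after OsWRKY76. NSHB2, a non-symbiotic haemoglobin directly after OsAOS2, rose in leaves by 0.54 ± 0.13 (SE, adjusted p = 0.0481). Beside OsChia2a, LOC4349269 fell in leaves, with a difference of -0.96 ± 0.16 (SE, adjusted p = 0.0125), opposite to OsChia2a. Directly after PBZ1, CSLD4, a cellulose synthase-like gene, fell in panicles, with a difference of -0.89 ± 0.17 (SE, adjusted p = 0.0306). The suffix of the CSLD4 probe set marks probes that may match other sequences. The gene directly before PBZ1, LOC4352490, differed by 0.07 ± 0.14 (SE, adjusted p = 0.908). No measured neighbour of PBZ1 was thus called higher in transgenic panicles.

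The genes with the most similar pattern were sought among 592 named genes with a difference of at least 0.5 in either tissue, by Pearson r over 8 arrays after removal of each tissue mean. The arrays share their groups, so r mostly restates the pair of genotype differences, and no p is given. Closest to PBZ1 were the late embryogenesis gene Osem (r = 0.990, panicle difference 1.45), OsNAC5, a NAC transcription factor (r = 0.982, 0.89), and OML6, a Mei2-like gene (r = 0.979, 1.80). Closest to OsChia4a were OsSAP17 (r = 0.991, leaf difference 1.67), OsMAPK5 (r = 0.984, 1.10) and OsKO2, a kaurene oxidase (r = 0.981, 0.54). Closest to OsChia2a were OsSAP1 (r = 0.983, leaf difference 0.84), the calmodulin-like CML15 (r = 0.972, 2.29) and EL2 (r = 0.972, 1.70). OsSAP17 and OsSAP1 are stress-associated zinc-finger proteins.

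For OsAOS2 the closest genes were OsWNK4, a kinase (r = 0.968), the cytosolic glutamine synthetase OsGS1;2 (r = 0.945) and the heat shock factor HSFB2B (r = 0.937), each higher in transgenic leaves (0.72, 0.78 and 0.65) and lower in transgenic panicles (-0.38, -0.89 and -0.41). For OsWRKY76 they were CLA1, a deoxyxylulose phosphate synthase (r = 0.980, leaf difference -2.13), OASB2 (r = 0.979, -0.87) and OsAGO2, an Argonaute (r = 0.973, -0.66).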

How the data were processed

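The authors deposited 1 table of log2 values with 57381 probe sets and 8 arrays, and the submitters' processing notes name RMA, without a version. This method corrects background, quantile normalizes and summarises probes. Array medians differ between tissues. The 123 AFFX and 64 reporter probe sets were left out as controls. The platform annotation paired 22436 probe sets with 1 gene, and names were updated by gene ID through the RefSeq gene table. The probe sets of Cht3, OsTIFY5, OsTIFY11b and OsKO2 also have suffixes that mark probes that may match other sequences. Groups came from sample titles.

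A mean per group was fitted to the 8 arrays with limma 3.58.1 in R 4.3.3, with 4 residual degrees of freedom and 1 spread for all groups. P-values are two-sided and Benjamini-Hochberg adjusted over 57194 probe sets. The SE is that of the moderated fit. The fit was tested on simulated data. Figures used matplotlib 3.10.9.

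The 5 genes, the lists and the alternatives were chosen with earlier results of these data known. Lists were made by matching symbols and synonyms; 7 matches to other genes of the same symbol were dropped by name, and the list of pathogenesis-related proteins held PBZ1 alone and was not used. Alternatives were quantile normalization of all arrays again, equal array medians, a filter on dim probe sets, a fit per tissue, array weights, a trended robust prior, a replicate block, other choices of probe set and leaving out each array. Named list genes are up to 6 called per list and tissue by smallest p, or the 2 with the smallest p where none was called, and close relatives of the 5 genes. Most similar genes are the 3 with the highest r among those named by more than a locus number.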

Additional observations from a re-analysis of the deposited data

Results flagged for a closer look

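OsAOS2 and OsWRKY76 had genotype differences of opposite sign in the tissues, with every transgenic array beyond both wild-type arrays each time. The panicle difference minus the leaf difference was -1.01 for OsAOS2 and 1.03 for OsWRKY76, and was not tested, since both genes were chosen from these contrasts. The OsWRKY76 panicle values lay below the array median.

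Of the 81 pathway genes, 7 had a genotype difference that itself differed between the tissues by limma, where 4.07% of all genes were called higher and 2.42% lower. The panicle difference minus the leaf difference was positive for MPK15 (1.11, adjusted p = 0.00685), Rcb4 (1.03, adjusted p = 0.0171) and LOX9 (1.69, adjusted p = 0.0239). It was negative for AOS4 (-1.04, adjusted p = 0.0252), OsMAPK5 (-0.82, adjusted p = 0.0364), OsNPR5 (-1.29, adjusted p = 0.0404) and OsWRKY24 (-1.59, adjusted p = 0.0440). The panicle values of LOX9 lay far below the array median, where a signal may be background. Values below the median were also those of MPK15 in leaves, OsWRKY24 in panicles and AOS4 in both tissues. MPK15 was the only 1 of the 7 that passed without each of the 8 arrays (adjusted p up to 0.0475). Without some array, adjusted p rose to 0.0915 for Rcb4, 0.0950 for LOX9, 0.128 for AOS4, 0.178 for OsMAPK5, 0.148 for OsNPR5 and 0.162 for OsWRKY24. With a replicate block OsMAPK5 (adjusted p = 0.0913), OsNPR5 (adjusted p = 0.0522) and OsWRKY24 (adjusted p = 0.0534) did not pass.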

How the results depend on the processing

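The differences of the 5 genes, taken from the main probe sets, kept their sign under the alternatives run for them. These were quantile normalization of all arrays again, equal array medians, the mean of all probe sets and leaving out each array of the tissue. The third OsChia2a probe set by itself had a leaf difference of -0.22. After quantile normalization of all arrays again the leaf difference was 3.36 for OsChia4a and 0.88 for OsAOS2, and the mean of the OsChia2a probe sets was 0.54 in leaves and 0.21 in panicles. The counts of called pathway genes were less stable. The cause of these moves was not tested, though fits on fewer arrays have fewer degrees of freedom. For the 4 that rose and 6 that fell in leaves, the fit on the 4 leaf arrays gave 1 and 1. The fit on the 4 panicle arrays gave 2 falls as before, but of OsTIFY11c and OsTIFY11d in place of AOS4 (adjusted p = 0.0673) and OsNPR5 (adjusted p = 0.0873). Array weights gave 1 rise in leaves, and 1 rise and 4 falls in panicles (0 and 2 in the fit reported). Quantile normalization gave 3 falls in leaves, and a filter on dim probe sets gave 1 fall in panicles. Leaving out single arrays gave 1 to 10 rises and 2 to 10 falls in leaves, 0 rises and 0 to 5 falls in panicles, and 1 to 8 positive and 0 to 10 negative tissue differences (3 and 4 in the fit reported). The 10 rises and 10 negative tissue differences came without wild-type leaf replicate 1, the 10 falls and 8 positive ones without wild-type leaf replicate 2, and 5 falls in panicles without either. Without wild-type panicle replicate 1 or 2 there were 1 rise and 2 falls in leaves and 0 falls in panicles. Without either transgenic leaf array or either transgenic panicle array, leaf rises were 1 or 2 and leaf falls 2 or 3. Over all probe sets, 2529 were called in leaves and 1652 in panicles, against 325 and 692 in fits on 4 arrays, and 2807 in panicles with array weights. Deviations of arrays with the same replicate number correlated with r of 0.007 in leaves and 0.06 in panicles, so the numbers were not taken as pairs. With the replicate block 3 pathway genes rose and 5 fell in leaves, 0 rose and 2 fell in panicles, and 4 positive and 1 negative tissue differences passed. No detection calls were used, and with 2 arrays a group no single array could be tested as an outlier.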

Other observations

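Pathway genes beyond the JAZ repressors also differed between the 2 wild-type leaf arrays by at least 1. Cht1 read 9.0 in replicate 1 and 6.37 in replicate 2, Cht3 6.48 and 5.04, and OsOPR4, of the oxophytodienoate reductase family, 7.33 and 5.98. PAL (10.15 and 11.17) and OsCEBiP, a receptor for chitin fragments (5.55 and 6.73), were higher in replicate 2. In transgenic leaves Cht1 read 8.99 and 9.36 and PAL 9.18 and 9.38. The part of this spread in the genotype differences of Cht1, Cht3 and PAL was not tested.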
